A study of Rattus with 27 samples.

Results

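Interferon-stimulated genes are the antiviral and immune genes that cells switch on when interferon binds its receptors. A list of 39 such genes was followed through the brain, white blood cells and spleen of rats after experimental stroke. Of these, 35 were measured among the 14506 genes of the array table, each by 1 probe. Xaf1, Parp10, Parp12 and Parp14 are not analysed here. Members were taken by symbol.

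The study used 27 Affymetrix rat Gene 1.0 arrays of brain, white blood cells and spleen of Sprague Dawley rats, taken at 6 h. Arrays of a group that carry the same number in their titles were read as tissues of 1 rat, which gives 9 rats, and this link rests on the titles alone. Each tissue had 3 arrays from vehicle-labelled rats (numbers 2, 4 and 5), 3 from model-labelled rats (1, 2 and 3) and 3 from sham rats (3, 4 and 5). Sham rats were anaesthetised and had their vessels exposed, and per the protocol all other rats underwent middle cerebral artery occlusion (MCAO), a blockade of a main brain artery that models ischaemic stroke. The protocol names a vehicle control and a group given the Yiqi Jiedu herbal formulae (YJ) at 25 mg/kg, whereas the samples are titled vehicle and model. No label says which of these titles stands for YJ, so the groups are called by their titles and no difference between them is read as a drug effect. All rats were housed free of pathogens, and the labels give no age, sex, occlusion time or brain side. Tissues were used whole, so in every value fewer cells of a type and less RNA per cell cannot be told apart.

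Type I interferons act through a receptor that activates Jak kinases, and a complex that holds Stat2 and Irf9 then binds the promoters of these genes. Interferon gamma induces Irf1, which drives guanylate-binding proteins and the antigen-processing machinery. The products block viral entry, translation and replication, sense foreign RNA and DNA, attach the ubiquitin-like protein Isg15 to other proteins, and load peptides onto MHC class I. In the brain, microglia, astrocytes and endothelium can all respond to interferon, and in blood and spleen these genes are active in most leukocytes.

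Values are log2 intensities, on which a step of 1 doubles the signal. A gene rose or fell where limma's adjusted p was under 0.05 over all 14506 genes. Array values are listed by rat number, and comparisons within a tissue share arrays, so their values stand side by side without being independent. Neuron markers averaged 8.97 to 10.61 in brains, against 3.88 to 4.49 in white blood cells and spleens. The brain arrays of vehicle 2 and sham 5 stood apart: a hypothalamic and thalamic marker mean was 5.85 in vehicle 2 and 8.22 in sham 5, against 4.91 to 5.55 in the other brains. Brain values without them are given for Ifit3, and for the median difference and count of genes passing against sham. The other brain values, with those of pathway and marker genes, include both arrays.

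**Figure D1:**
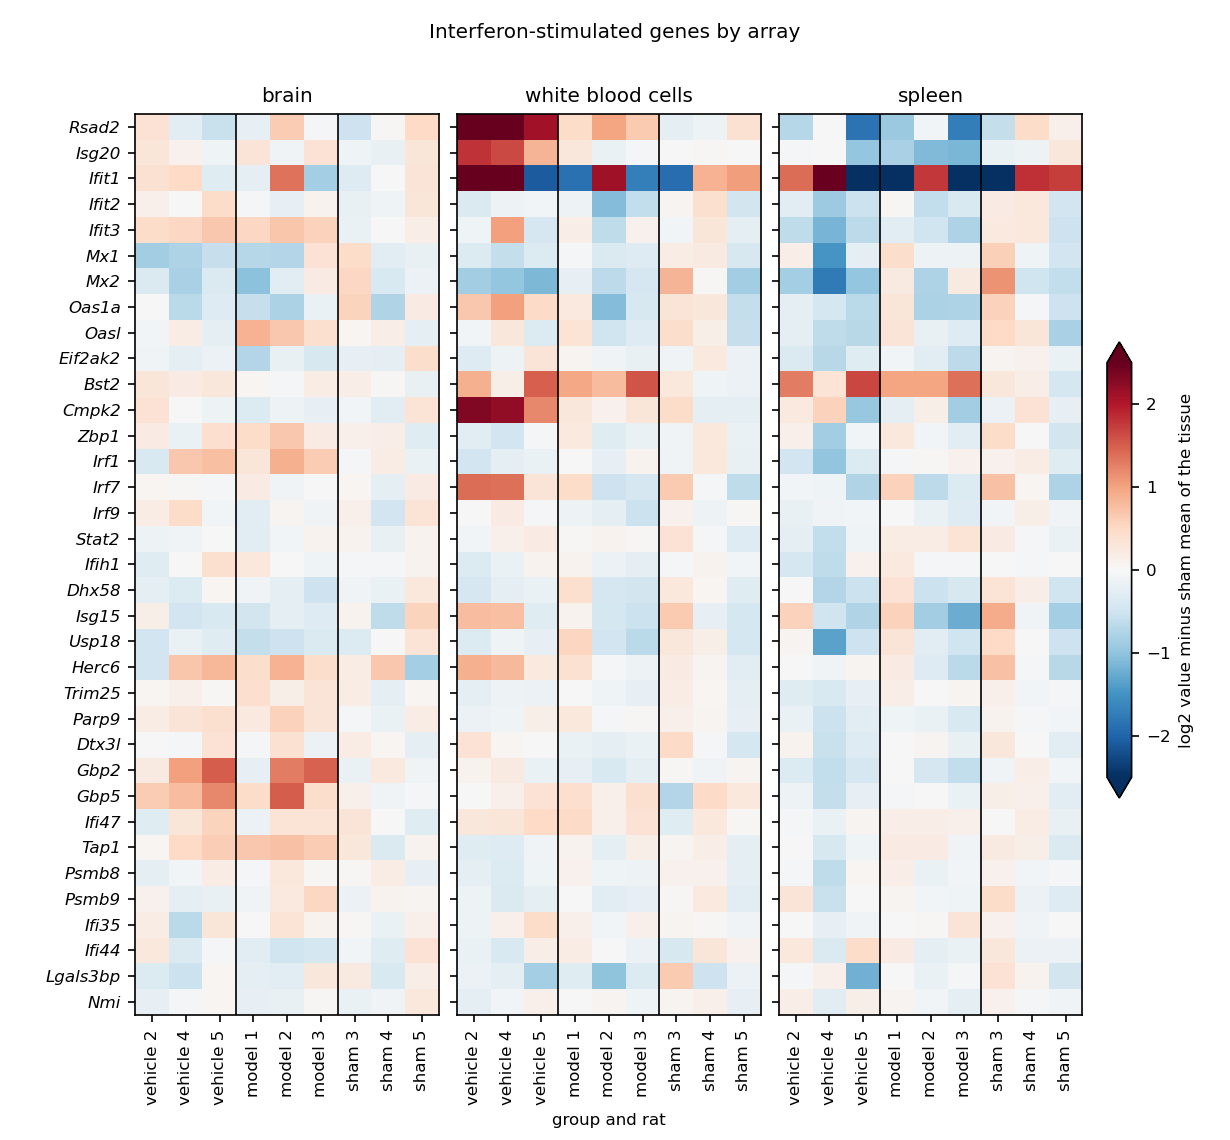
Log2 value of each of the 35 genes (rows) in each array (columns, by group and rat) minus the sham mean of that gene in the same tissue; red is above and blue below the sham mean, and colours stop at 2.5 either way. Rsad2, Isg20 and Cmpk2 stand out in vehicle-labelled white blood cells, Ifit1 alternates between rats, and most spleen genes of vehicle 4 lie below sham.

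In white blood cells, 3 of the 35 genes rose in the vehicle-labelled rats against sham: Rsad2, Cmpk2 and Isg20. Another 32 did not pass, and 0 fell. Among all genes 1.58% rose and 0.427% fell in this comparison. The same 3 genes rose over the model-labelled rats and 0 fell, while 1.26% of all genes rose and 0.296% fell. At an unadjusted p under 0.05 the count was 10 of 35 against sham (13.4% of all genes) and 9 of 35 against model (10.9% of all genes). Against sham 8 of these were higher and 2 lower (5.41% and 7.96% of all genes). Against model 9 were higher and 0 lower (5.64% and 5.23% of all genes). All vehicle-labelled arrays lay above all sham arrays in 6 genes and below in 0 (5.38% and 9.89% of all genes). For the model-labelled arrays these counts were 7 and 1 (8.52% and 10.4% of all genes). The median vehicle minus sham difference of the 35 genes was -0.04, against -0.06 over all genes.

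Rsad2 encodes viperin, an enzyme of the endoplasmic reticulum that makes a chain-terminating nucleotide and blocks the replication of many viruses. Its level was 10.99, 10.78 and 9.98 in vehicle-labelled white blood cells, 8.34, 8.87 and 8.54 in model-labelled cells and 7.65, 7.75 and 8.26 in sham cells. Every vehicle-labelled array lay above every other array, and every model-labelled array lay above every sham array. The vehicle minus sham difference was 2.70 ± 0.24 (SE), or 6.48-fold (adjusted p = 3.08e-05), and the vehicle minus model difference 2.00 ± 0.24 (adjusted p = 0.000682). Model minus sham was 0.70 ± 0.24 (adjusted p = 0.666), which did not pass.

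Cmpk2 encodes a mitochondrial kinase that supplies the nucleotide viperin uses, and RefSeq places it beside Rsad2 among protein-coding genes. It stood at 8.97, 8.88 and 7.85 in vehicle-labelled cells, 6.94, 6.76 and 6.95 in model-labelled cells and 7.12, 6.43 and 6.42 in sham cells. All vehicle-labelled arrays were above all others, while model-labelled and sham arrays overlapped. It rose by 1.91 ± 0.26 over sham, 3.76-fold (adjusted p = 0.000889), and by 1.68 ± 0.26 over the model-labelled rats (adjusted p = 0.0035).

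Isg20, an exonuclease that degrades single-stranded RNA, stood at 8.65, 8.49 and 7.68 in vehicle-labelled cells, 7.12, 6.67 and 6.79 in model-labelled cells and 6.83, 6.86 and 6.82 in sham cells. The sham values were close together and lay within the range of the model-labelled values. The rise was 1.44 ± 0.21 over sham, 2.71-fold (adjusted p = 0.00155), and 1.41 ± 0.21 over the model-labelled rats (adjusted p = 0.00231). In all 3 genes vehicle 5 was the lowest of the vehicle-labelled arrays.

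**Figure D2:**
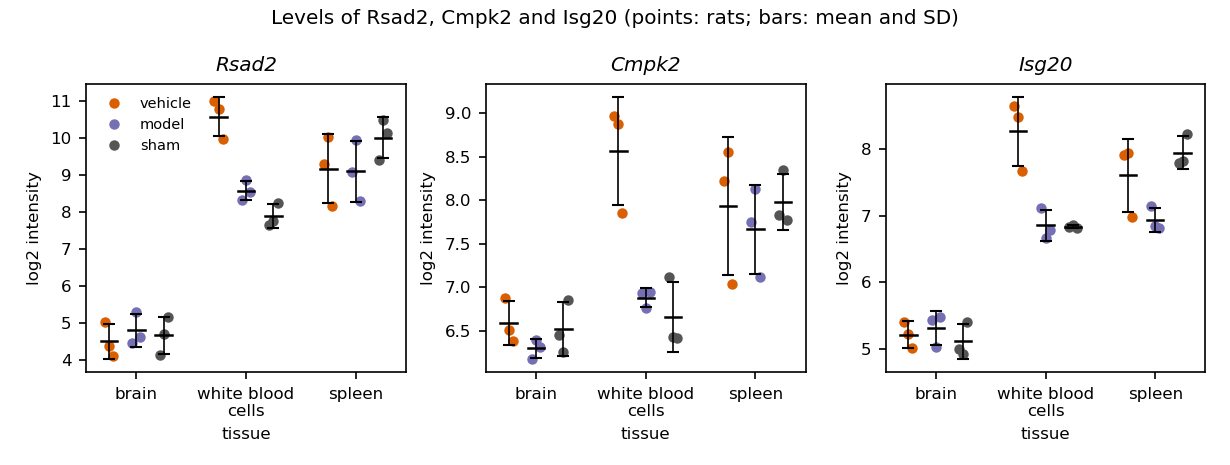
Log2 intensity of Rsad2, Cmpk2 and Isg20 by tissue (horizontal axis) in vehicle-labelled, model-labelled and sham rats; points are rats, lines the mean and bars the SD of 3 arrays. In white blood cells every vehicle-labelled point lies above every model-labelled and sham point, and in brain and spleen the vehicle-labelled and sham points overlap.

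In vehicle-labelled white blood cells these 3 genes rose beside markers of red blood cell precursors. All 10 measured erythroid markers, among them the haem synthesis enzyme Alas2, the globin chaperone Ahsp and the band 3 anion exchanger Slc4a1, rose in vehicle-labelled over sham white blood cells (median 2.62), and 9 of 10 rose over the model-labelled cells. Their summed linear signal ran from 21439 to 28924 in vehicle-labelled arrays, 11919 to 12856 in model-labelled arrays and 7626 to 9530 in sham arrays. Neutrophil markers moved as well: 6 of 12 rose over sham, and their sum was 3438 to 5415, 2360 to 2872 and 1548 to 2155 in vehicle-labelled, model-labelled and sham cells. No T cell, B cell, natural killer, monocyte or plasmacytoid dendritic cell marker passed limma's test between vehicle-labelled and sham cells, though 4 of 12 T cell and 4 of 11 monocyte markers had an unadjusted p under 0.05. Against the model-labelled cells the T cell marker Tcf7 was lower (-0.81 ± 0.17, limma adjusted p = 0.0321). In that comparison 6 of 12 T cell markers had an unadjusted p under 0.05. Between model-labelled and sham cells limma called 0 erythroid markers, and 7 of 10 had an unadjusted p under 0.05 (median difference 0.72). Rsad2 differed by 0.70 there, but Cmpk2 only by 0.23 and Isg20 by 0.02. No marker value was at 0, and the part of these cells in the result was not tested.

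In spleen, which makes red cells in rodents, the erythroid marker mean varied within every group and no erythroid marker passed between groups (at most 1 of 10 at an unadjusted p under 0.05). Rsad2 followed it over the 9 spleens (Pearson's r = 0.956, exact permutation p = 0.00022, adjusted over 3 relations 0.000661; Spearman's rho = 0.9, p = 0.00203, adjusted 0.00304). Cmpk2 gave r = 0.889 (exact permutation p = 0.00185, adjusted 0.00277) and rho = 0.9 (p = 0.00203, adjusted 0.00304). Isg20 gave r = 0.795 (exact permutation p = 0.0158, adjusted 0.0158) and rho = 0.783 (p = 0.0172, adjusted 0.0172). These genes and this marker list were taken up after both had risen in white blood cells of the same series. The permutations ignored the groups, and only this marker list was related to the genes. These p-values are therefore not an independent test. Without vehicle 5 and model 3, whose marker means lay farthest from the median, r was 0.857 for Rsad2, 0.623 for Cmpk2 and 0.642 for Isg20 over 7 spleens. Within groups, that is after the group means were removed, r was 0.975, 0.926 and 0.758 for the same genes in spleen. An r at least as high occurred in 0.538% of all genes for Rsad2, 1.7% for Cmpk2 and 3.43% for Isg20, while the median r of the 35 genes was -0.07, against 0.04 over all genes. Ifit1, which was not among the 3 relations tested, gave r = 0.885 in spleen and 0.925 within groups. An r at least as high as its 0.885 occurred in 1.8% of all genes. In white blood cells the groups formed separate clusters, so no pooled relation was tested there. With group means removed, r was 0.903 for Rsad2, 0.447 for Cmpk2 and 0.631 for Isg20 in white blood cells, and 0.72, 0.44 and -0.06 in brain.

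**Figure D3:**
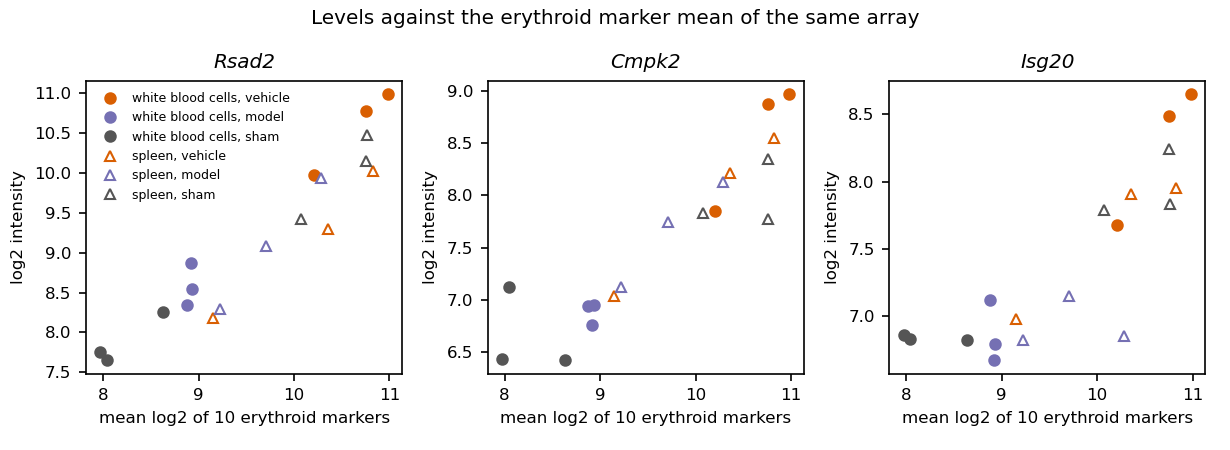
Log2 intensity of Rsad2, Cmpk2 and Isg20 (vertical axes) against the mean log2 value of 10 erythroid markers in the same array (horizontal axes), for white blood cells (filled circles) and spleen (open triangles), coloured by group. Spleens of all groups are spread along the marker axis, with vehicle 5 and model 3 at its low end.

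The remaining antiviral effectors showed no shared direction in white blood cells. Oas1a, a sensor enzyme that turns on RNA decay, was at 7.10, 7.46 and 6.90 in vehicle-labelled, 6.68, 5.34 and 6.02 in model-labelled and 6.75, 6.71 and 5.83 in sham cells. Its vehicle-labelled arrays lay above all others, yet neither the difference from sham (0.72, adjusted p = 0.317) nor that from the model-labelled rats (1.14, adjusted p = 0.0994) passed. Mx1, a GTPase that traps viral nucleocapsids, was at 7.91, 7.67 and 7.92 in vehicle-labelled, 8.21, 7.90 and 7.94 in model-labelled and 8.44, 8.48 and 7.86 in sham cells. The difference from sham was -0.43 ± 0.16 (adjusted p = 0.272), and its relative Mx2 differed by -0.99 (adjusted p = 0.145). Without the array of sham 5 both passed as lower (Mx1 -0.63, adjusted p = 0.0367; Mx2 -1.43, adjusted p = 0.00318), so that array decided their call. Ifit3, which helps Ifit1 bind viral RNA, averaged 5.01 ± 0.76 in vehicle-labelled, 4.71 ± 0.45 in model-labelled and 4.84 ± 0.29 in sham cells (SD, n = 3 each), a spread wider than any of the differences.

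Among the transcription factors, Irf7, the amplifier of type I interferon production, came closest to a rise. Its white blood cell level was 9.0, 8.98 and 7.93 in vehicle-labelled, 8.07, 7.09 and 7.19 in model-labelled and 8.27, 7.57 and 6.98 in sham rats. Vehicle 2 and vehicle 4 were above all other arrays and vehicle 5 was not. The differences of 1.03 ± 0.34 from sham (adjusted p = 0.191) and 1.19 ± 0.34 from the model-labelled rats (adjusted p = 0.153) did not pass over all arrays. Without vehicle 5, Irf7 passed against the model-labelled rats (1.54, adjusted p = 0.0437). Stat2, a subunit of the interferon-activated complex, averaged 7.82 ± 0.14 in vehicle-labelled, 7.78 ± 0.04 in model-labelled and 7.73 ± 0.35 in sham cells. Its vehicle minus sham difference had a 95% interval of -0.25 to 0.42. Irf1, an early interferon gamma target, averaged 7.64 ± 0.16 in vehicle-labelled, 7.89 ± 0.15 in model-labelled and 7.93 ± 0.24 in sham cells (adjusted p = 0.401 for vehicle against sham).

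The Isg15 system gave values on both sides of sham. Isg15 itself was at 6.88, 6.85 and 5.80 in vehicle-labelled, 6.20, 5.67 and 5.56 in model-labelled and 6.76, 5.89 and 5.66 in sham cells, with overlap between all groups. Its vehicle minus sham difference was 0.41 ± 0.31 (adjusted p = 0.593), with an interval of -0.26 to 1.07. Usp18, the protease that removes Isg15 and dampens receptor signalling, averaged 5.22 ± 0.12, 5.23 ± 0.65 and 5.44 ± 0.38 in vehicle-labelled, model-labelled and sham cells. Herc6, the rodent ligase that attaches Isg15, was at 7.49, 7.41 and 6.85 in vehicle-labelled and 6.81, 6.66 and 6.33 in sham cells. These groups did not overlap, but the difference of 0.65 ± 0.19 did not pass (adjusted p = 0.123).

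Antigen-processing genes stayed close to sham in white blood cells. The immunoproteasome subunit Psmb8 averaged 7.95 ± 0.13 in vehicle-labelled, 8.14 ± 0.12 in model-labelled and 8.18 ± 0.19 in sham cells. The peptide transporter Tap1 averaged 7.82 ± 0.13, 8.05 ± 0.21 and 8.06 ± 0.21 in vehicle-labelled, model-labelled and sham cells. Neither passed against sham (adjusted p = 0.466 for Psmb8 and 0.497 for Tap1), and the 95% intervals of the vehicle minus sham difference were -0.51 to 0.05 for Psmb8 and -0.55 to 0.07 for Tap1.

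Between model-labelled and sham white blood cells, 0 of 35 genes passed limma's test, as did 0% of all genes, and 5 genes had an unadjusted p under 0.05 (6.07% of all genes). The smallest p belonged to Bst2, or tetherin, which holds budding virus on the cell surface. Its level was 6.39, 5.65 and 7.01 in vehicle-labelled, 6.47, 6.31 and 7.09 in model-labelled and 5.77, 5.40 and 5.36 in sham cells. All model-labelled arrays exceeded all sham arrays, by a mean of 1.11 ± 0.28 (adjusted p = 0.378). Rsad2 was next, with the values given above.

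**Figure D4:**
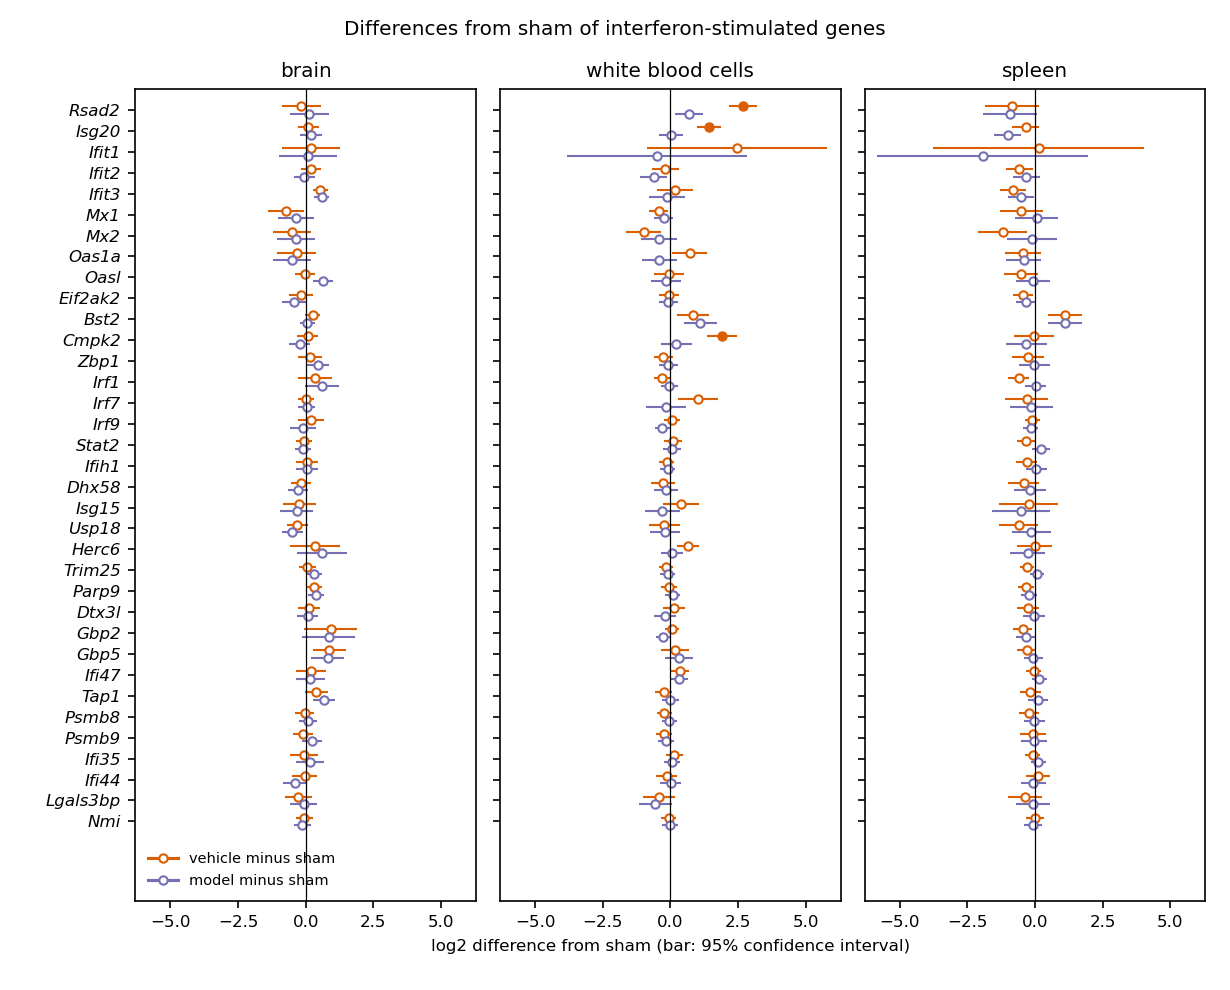
Log2 difference from sham of each gene (rows) in vehicle-labelled (orange, upper) and model-labelled (purple, lower) rats, by tissue, with 95% confidence intervals from the limma fit; filled points have an adjusted p under 0.05. The filled points are Rsad2, Isg20 and Cmpk2 in vehicle-labelled white blood cells, and Ifit1 has the widest intervals in white blood cells and spleen.

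In spleen, no interferon-stimulated gene passed in any comparison. Most lay a little below sham in the vehicle-labelled rats, and most also did in the model-labelled rats. Of 35 genes, 31 had a vehicle minus sham difference at or below 0, with a median of -0.31, whereas the median over all genes was 0.04 and 57.5% of all genes lay above 0. Limma called 0 of the 35 genes and 0.0483% of all genes. At an unadjusted p under 0.05, 9 genes differed (9.35% of all genes), 8 of them lower, and 4.56% of all genes were lower at that level. In 7 genes all vehicle-labelled spleens lay below all sham spleens (5.69% of all genes): Ifit3, Mx2, Irf1, Gbp2, Eif2ak2, Trim25 and Parp9.

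Ifit3 had the smallest p among the lower genes. It stood at 5.54, 5.01 and 5.51 in vehicle-labelled, 5.91, 5.66 and 5.39 in model-labelled and 6.42, 6.43 and 5.65 in sham spleens. The vehicle-labelled arrays were below the sham arrays without overlap, by -0.81 ± 0.22 (adjusted p = 0.312). Irf1 stood at 7.50, 6.99 and 7.63 in vehicle-labelled, 7.96, 8.0 and 8.08 in model-labelled and 8.09, 8.17 and 7.68 in sham spleens. Here the vehicle-labelled spleens were below both other groups, by -0.64 ± 0.18 from model (adjusted p = 0.197) and -0.61 ± 0.18 from sham (adjusted p = 0.333).

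Stat2 stood at 7.67, 7.28 and 7.78 in vehicle-labelled, 8.07, 8.08 and 8.24 in model-labelled and 8.09, 7.86 and 7.73 in sham spleens. Vehicle-labelled spleens were below all model-labelled spleens (-0.55 ± 0.15, adjusted p = 0.197) and overlapped sham. Between vehicle-labelled and model-labelled spleens limma called 0 of 35 genes, and 0% of all genes, while 5 genes had an unadjusted p under 0.05 (12.9% of all genes). In 5 genes, among them Stat2 and Irf1, every vehicle-labelled spleen was below every model-labelled spleen, against 11.2% of all genes.

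The spleen of vehicle 4 was the lowest array for many of the genes. Its median over the 35 genes was -0.53 below the sham mean, with 5 genes above it, and the same median was -0.04 in vehicle 2 and -0.31 in vehicle 5. Among sham spleens it was 0.21 in sham 3, 0.01 in sham 4 and -0.29 in sham 5, so rats of a group differed by about as much as the groups. Without vehicle 4 the median vehicle minus sham difference was -0.21, with 8 of 35 genes above 0, and over all alternatives it lay between -0.44 and -0.21. T cell markers averaged 7.51, 6.80 and 7.86 in vehicle-labelled, 7.99, 7.87 and 7.93 in model-labelled and 8.07, 7.64 and 7.35 in sham spleens. B cell markers averaged 9.10, 8.55 and 9.49 in vehicle-labelled, 9.49, 9.34 and 9.49 in model-labelled and 9.51, 9.07 and 9.18 in sham spleens. Both were lowest in vehicle 4. No marker of either list passed limma's test against sham, with 0 at an unadjusted p under 0.05. Against the model-labelled spleens limma also called 0. There 5 of 12 T cell (median -0.54) and 2 of 4 B cell markers (median -0.48) had an unadjusted p under 0.05. Neutrophil markers averaged 7.08, 7.70 and 7.56 in vehicle-labelled, 7.63, 7.14 and 7.81 in model-labelled and 7.56, 8.60 and 8.13 in sham spleens, and 5 of 12 had an unadjusted p under 0.05 between vehicle-labelled and sham spleens (median -0.60), as did 3 of 9 natural killer markers (median 0.19), with 0 called by limma in either list. The part of these cells in the lower values was not tested.

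Bst2 had the largest spleen difference above 0 in both groups against sham. It stood at 7.84, 6.90 and 8.23 in vehicle-labelled, 7.55, 7.54 and 7.94 in model-labelled and 6.84, 6.72 and 6.12 in sham spleens. Every spleen after MCAO was above every sham spleen, by 1.10 ± 0.29 in the vehicle-labelled (adjusted p = 0.305) and 1.12 ± 0.29 in the model-labelled rats (adjusted p = 0.251). Without vehicle 4 the vehicle-labelled difference passed (1.48, adjusted p = 0.0388).

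Between model-labelled and sham spleens limma called 0 of 35 genes and 0.0414% of all genes, with 3 genes at an unadjusted p under 0.05 (9.5% of all genes). Of 35 genes, 26 lay at or below 0 (median -0.08, against 0.07 over all genes), while 66.2% of all genes lay above 0. This median was -0.562 with the replicate number as a block and 0.085 without sham 3. Isg20 had the smallest p, at 7.91, 7.95 and 6.98 in vehicle-labelled, 7.15, 6.85 and 6.82 in model-labelled and 7.79, 7.83 and 8.24 in sham spleens. All model-labelled spleens were below all sham spleens, by -1.01 ± 0.23 (adjusted p = 0.211). Leaving vehicle 5 out of the fit brought this below the threshold (adjusted p = 0.0225), as did a fit of these groups alone (adjusted p = 0.0348).

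For the other role examples in spleen the rats of a group spread widely. Isg15 was at 7.73, 6.66 and 6.40 in vehicle-labelled, 7.73, 6.29 and 5.92 in model-labelled and 8.09, 7.08 and 6.31 in sham spleens, more than 1 log2 unit between rats of every group. Irf7 averaged 8.36 ± 0.39 in vehicle-labelled, 8.52 ± 0.64 in model-labelled and 8.67 ± 0.76 in sham spleens. Usp18 averaged 5.88 ± 0.70, 6.32 ± 0.42 and 6.47 ± 0.51, and Mx1 7.77 ± 0.85, 8.34 ± 0.33 and 8.29 ± 0.55, in vehicle-labelled, model-labelled and sham spleens. The antigen-processing genes were tighter: Psmb8 averaged 8.38 ± 0.38, 8.57 ± 0.17 and 8.59 ± 0.10, and Tap1 7.70 ± 0.20, 7.98 ± 0.17 and 7.87 ± 0.32, in vehicle-labelled, model-labelled and sham spleens. None of these passed in any spleen comparison.

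In the brain, none of the 35 genes passed limma's test at 6 h, and Ifit3 had the smallest adjusted p against sham. Between model-labelled and sham brains limma called 0 of 35 genes, against 1.16% of all genes, and 7 genes had an unadjusted p under 0.05, against 14.4% of all genes. Between vehicle-labelled and sham brains it called 0 of 35, against 0.0483%, with 4 at an unadjusted p under 0.05 (9.33% of all genes). Between vehicle-labelled and model-labelled brains it called 0 of 35, against 0.0551%, with 1 at an unadjusted p under 0.05 (14.3% of all genes). Median differences of the 35 genes were 0.04 for vehicle minus sham and 0.07 for model minus sham, against 0.01 and 0.03 over all genes. Without the brain arrays of vehicle 2 and sham 5 they were 0.09 and 0.10, against -0.005 and 0.012 over all genes.

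Ifit3 stood at 4.19, 4.24 and 4.40 in vehicle-labelled, 4.25, 4.42 and 4.30 in model-labelled and 3.56, 3.73 and 3.90 in sham brains. All 6 brains after MCAO were above all 3 sham brains. The difference from sham was 0.55 ± 0.12 in vehicle-labelled (adjusted p = 0.162) and 0.59 ± 0.12 in model-labelled brains (adjusted p = 0.0591). Without the brain arrays of vehicle 2 and sham 5, it passed in both: 0.68 for vehicle minus sham (adjusted p = 0.046) and 0.68 for model minus sham (adjusted p = 0.022). All brain levels of Ifit3 lay in the lower part of the array's range, below the 40th percentile of gene means (5.11 in brain), as did 21 of the 35 genes.

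Oasl, which strengthens RNA sensing in human cells, stood at 4.41, 4.67 and 4.25 in vehicle-labelled, 5.35, 5.15 and 4.89 in model-labelled and 4.53, 4.65 and 4.26 in sham brains. Model-labelled brains were above both other groups, which overlapped. The model minus sham difference was 0.65 ± 0.17 (adjusted p = 0.121) and the vehicle minus model difference -0.69 ± 0.17 (adjusted p = 0.16). Psmb9, an immunoproteasome subunit, had the next smallest p between vehicle-labelled and model-labelled brains, at -0.33 ± 0.16 (adjusted p = 0.395).

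Gbp5 and Tap1 had higher brain means than sham that did not pass, and Psmb8 lay close to sham. Gbp5, a GTPase that promotes inflammasome assembly, stood at 4.75, 4.89 and 5.31 in vehicle-labelled, 4.57, 5.63 and 4.55 in model-labelled and 4.24, 4.02 and 4.07 in sham brains. Its groups did not overlap with sham, and the differences of 0.87 ± 0.27 in vehicle-labelled (adjusted p = 0.329) and 0.81 ± 0.27 in model-labelled brains (adjusted p = 0.239) did not pass. Tap1 stood at 4.74, 5.19 and 5.29 in vehicle-labelled, 5.35, 5.42 and 5.31 in model-labelled and 4.96, 4.32 and 4.77 in sham brains. Model-labelled brains were above all sham brains by 0.68 ± 0.19 (adjusted p = 0.156), and vehicle 2 lay within the sham range. Irf1 averaged 5.27 ± 0.63 in vehicle-labelled, 5.54 ± 0.30 in model-labelled and 4.92 ± 0.18 in sham brains, with vehicle 2 at 4.55, below all sham brains. Psmb8 averaged 5.22 ± 0.22 in vehicle-labelled, 5.34 ± 0.16 in model-labelled and 5.26 ± 0.19 in sham brains.

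The other role examples lay near or below sham in the brain, and 19 of the 35 genes had a vehicle minus sham and 21 a model minus sham difference above 0. Isg15 averaged 4.82 ± 0.34 in vehicle-labelled, 4.72 ± 0.11 in model-labelled and 5.06 ± 0.59 in sham brains. Mx1 averaged 3.52 ± 0.14, 3.91 ± 0.63 and 4.26 ± 0.40, and Usp18 3.18 ± 0.17, 3.00 ± 0.12 and 3.50 ± 0.34, in vehicle-labelled, model-labelled and sham brains. Irf7 averaged 4.84 ± 0.06, 4.87 ± 0.15 and 4.84 ± 0.23, and Stat2 6.02 ± 0.06, 6.01 ± 0.19 and 6.09 ± 0.16, in vehicle-labelled, model-labelled and sham brains. The 95% interval of the vehicle minus sham difference of Irf7 in the brain was -0.30 to 0.32.

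The remaining genes of the list did not pass limma's test against sham in any tissue, and the values here are log2 differences from sham. In white blood cells the differences of the RNA sensors Ifih1 (MDA5) and Dhx58 (LGP2) were -0.14 and -0.28 in vehicle-labelled and -0.10 and -0.16 in model-labelled rats. Trim25, the ubiquitin ligase of the RNA sensor RIG-I, gave -0.17 and -0.10, and Parp9, an ADP-ribosyltransferase partner of Dtx3l, gave -0.04 and 0.08, in vehicle-labelled and model-labelled cells. In the brain the guanylate-binding protein gene Gbp2 gave the largest differences from sham of the list, 0.92 in vehicle-labelled and 0.85 in model-labelled rats. Its brain values were 4.74, 5.54 and 6.04 in vehicle-labelled, 4.32, 5.79 and 6.00 in model-labelled and 4.36, 4.76 and 4.44 in sham rats. Vehicle 2 (4.74), 1 of the brain arrays that stood apart, lay within the sham range, and model 1 (4.32) lay below it. The limma adjusted p was 0.562 for vehicle-labelled and 0.407 for model-labelled against sham brains. Ifi35 and Nmi, which bind each other and act in cytokine signalling, stayed within 0.15 of sham on the log2 scale in all tissues and both groups. In the spleen Ifit2, an RNA-binding effector, gave -0.58 in vehicle-labelled and -0.32 in model-labelled rats, and Eif2ak2, the RNA-activated kinase PKR, gave -0.45 and -0.33 in vehicle-labelled and model-labelled rats. Zbp1, a sensor of Z-form nucleic acid, gave 0.16 in vehicle-labelled and 0.45 in model-labelled brains, and -0.26 and -0.02 in vehicle-labelled and model-labelled spleens. Irf9, the DNA-binding subunit of the interferon-activated factor ISGF3, gave 0.06 in vehicle-labelled and -0.30 in model-labelled white blood cells. Psmb9, an immunoproteasome subunit, gave -0.25 and -0.15 in vehicle-labelled and model-labelled white blood cells. Lgals3bp, a secreted glycoprotein, was below sham on average in all tissues of both groups, at -0.41 in vehicle-labelled and -0.55 in model-labelled white blood cells. The differences of Dtx3l, a ubiquitin ligase, the GTPase gene Ifi47 and Ifi44 lay between -0.40 (Ifi44 in model-labelled brains) and 0.36 (Ifi47 in vehicle-labelled white blood cells).

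The pathway around these genes moved at few points. Of 30 listed interferon ligands, receptors and signal transducers 21 were measured, and only Socs3, the feedback inhibitor of Jak signalling that cytokines other than interferon also induce, rose between model-labelled and sham brains: 7.20 ± 0.09, against 4.85 ± 0.11 (difference 2.35 ± 0.28, adjusted p = 0.00398). Among all genes 1.16% passed in that comparison. Some markers moved there too. Of 11 monocyte and macrophage markers limma called 1, Cd14, which rose by 2.26 ± 0.32 (adjusted p = 0.00901), and the list median was 0.11. Of 6 endothelial markers it called 2: Flt1 rose by 0.73 ± 0.14 (adjusted p = 0.0375) and Slco1a4 fell by 1.98 ± 0.31 (adjusted p = 0.0162). Among 12 neutrophil markers 8 had an unadjusted p under 0.05 (median difference 0.45), with 0 called. Of 7 microglia markers 0 were called (median -0.04). Their summed linear signal was 606 to 767 in model-labelled and 808 to 1035 in sham brains. The part of these cells in the rises in model-labelled brains was not tested. No other comparison between groups in a tissue called a gene of the Socs3 list, and 1 to 7 of the 21 had an unadjusted p under 0.05. The 7 fell between vehicle-labelled and model-labelled spleens, where 12.9% of all genes had one. Of 16 measured nucleic acid sensing genes limma called 0 in any comparison between groups, and 1 to 7 had an unadjusted p under 0.05. Again the 7 were between vehicle-labelled and model-labelled spleens, with a median difference of -0.35, against -0.02 over all genes. Of 45 measured further interferon-stimulated genes, Ifitm3, a membrane protein that blocks viral fusion, rose between model-labelled and sham brains (1.16 ± 0.21, adjusted p = 0.0319), beside the same markers. In white blood cells Lgals9, or galectin-9, rose between vehicle-labelled and sham rats (1.10 ± 0.17, adjusted p = 0.0034). Ube2l6, the enzyme that carries Isg15 to its ligase, rose there by 1.28 ± 0.26 over sham (adjusted p = 0.0221) and by 1.37 ± 0.26 over the model-labelled rats (adjusted p = 0.017). Among all genes 1.58% rose over sham and 1.26% over the model-labelled rats in white blood cells. At an unadjusted p under 0.05, 14 of these 45 genes differed between vehicle-labelled and sham white blood cells (13.4% of all genes) and 12 between vehicle-labelled and sham spleens (9.35% of all genes).

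The vehicle minus sham difference itself differed between tissues for Rsad2, Isg20 and Cmpk2, by an F test over all 27 arrays (1.15% of all genes passed). Rsad2 differed by -0.16 in brain, 2.70 in white blood cells and -0.85 in spleen (adjusted p = 0.00372). Isg20 differed by 0.10, 1.44 and -0.34 (adjusted p = 0.0117), and Cmpk2 by 0.07, 1.91 and -0.05 (adjusted p = 0.035), in the same tissues. The Cmpk2 call held in 6 of 16 alternatives and was lost in the other 10, among them the omission of any rat but vehicle 5 (adjusted p up to 0.189), while Isg20 held in 12 and Rsad2 in 15 of 16. Without the arrays of sham 4 none of these 3 passed, and without sham 3 or sham 5 only Rsad2 did. For model minus sham 0 of 35 genes differed between tissues by limma's test (0.986% of all genes), and 7 had an unadjusted p under 0.05 (12% of all genes).

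Sham rats gave the tissue levels without occlusion of the artery. In the brain 33 of 35 genes were lower than in spleen and 0 were higher, while 27.4% of all genes were lower and 26.3% higher. The median difference was -2.53, against -0.02 over all genes, and in 30 genes every sham brain lay below every sham white blood cell and spleen array. Rsad2 averaged 4.67 ± 0.51 in brain and 10.02 ± 0.54 in spleen, Ifi47, an immunity-related GTPase, 4.68 ± 0.32 and 9.58 ± 0.19, and Mx1 4.26 ± 0.40 and 8.29 ± 0.55. The uncalled genes were Mx2 (-0.91, adjusted p = 0.0718) and Ifit1 (adjusted p = 0.0868).

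White blood cells and spleen of sham rats were closer. Here 16 of 35 genes differed, 3 higher and 13 lower in white blood cells, while 19.7% of all genes were higher and 19.3% lower. The higher genes were Lgals3bp, a secreted scavenger-receptor protein (9.84 ± 0.60 in white blood cells and 8.56 ± 0.42 in spleen), Zbp1, a sensor of left-handed nucleic acids (7.52 ± 0.23 and 6.71 ± 0.46), and Irf9 (8.59 ± 0.12 and 8.01 ± 0.13). Rsad2 had the largest called difference, 7.89 ± 0.33 in white blood cells against 10.02 ± 0.54 in spleen (-2.13, adjusted p = 0.000256). The median difference of the 35 genes was -0.36 (0.12 over all genes), and -0.20 with median centring (0.28 over all genes). Over all alternatives 8 to 19 genes passed. Cell type markers differed between these tissues as well. All 10 erythroid markers were lower in sham white blood cells than in sham spleen, among them Alas2 (8.68 and 10.86) and Ahsp (7.14 and 11.26). Of 12 neutrophil markers 8 were lower and 1 higher, and of 4 B cell markers 3 were lower. Higher in white blood cells were 9 of 12 T cell, 9 of 9 natural killer and 3 of 3 platelet markers. Of 11 monocyte and macrophage markers 4 were higher and 4 lower. The part of these cells in the differences was not tested.

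Deviations from the group mean went together between white blood cells and spleen for many of these genes. After removal of group means, the values of a gene in the 9 rats correlated between the tissues with a median r of 0.542 over the 35 genes, against 0.234 over all genes. In 22 of 35 genes (62.9%) r was above 0.5, against 25.3% of all genes. It reached 0.962 for Irf7, 0.903 for Bst2, 0.883 for Isg20 and 0.826 for Isg15, and was below 0 for Gbp5, Ifit3, Gbp2 and Ifi35. The median r with brain was lower, at 0.185 for white blood cells (0.055 over all genes) and 0.168 for spleen (0.103 over all genes). These correlations rest on the link of tissues by the number in the titles and are given without a test.

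Within spleen, many of the genes varied with Isg15 and some did not. With group means removed, Isg15 correlated with the other 34 genes at a median r of 0.607, against 0.03 with all genes, and 14 of the 34 exceeded 0.7, against 2.96% of all genes. In brain 4 of the 34 did so with Isg15 (9.38% of all genes), and in white blood cells 8 (13.2% of all genes). With Irf7 in spleen 7 of 34 did (2.02% of all genes), and with Rsad2 in spleen 2 of 34 (11.6% of all genes). In Isg15 the highest spleens of their groups were vehicle 2, model 1 and sham 3, and the lowest were vehicle 5, model 3 and sham 5. The median r of a gene with the other members was -0.21 for Rsad2, -0.24 for Isg20, -0.40 for Ifit1 and -0.05 for Cmpk2 in spleen, and -0.43 for Rsad2 in white blood cells. With its neighbour Cmpk2 it correlated at 0.93 in spleen, 0.768 in brain and 0.431 in white blood cells. Other neighbouring pairs in RefSeq gave low and high values. Ifit2 with Ifit3 gave 0.653 in brain, 0.518 in white blood cells and 0.881 in spleen, and Parp9 with Dtx3l gave 0.333, 0.398 and 0.853 in the same tissues. Psmb8 with Tap1 gave 0.184, 0.739 and 0.551, and Tap1 with Psmb9 -0.532, 0.692 and 0.786, again in brain, white blood cells and spleen.

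Ifit1, which binds viral RNA lacking cap methylation, had the widest spread of the 35 genes between sham rats in white blood cells (SD 1.66) and spleen (SD 3.07). It lies outside the rule by which genes were chosen for naming and was singled out after its values were seen. In spleen it stood at 8.73, 9.80 and 3.87 in vehicle-labelled, 3.74, 9.11 and 3.34 in model-labelled and 3.79, 9.15 and 9.06 in sham rats. In white blood cells it stood at 9.77, 10.11 and 3.13 in vehicle-labelled, 3.34, 7.33 and 3.50 in model-labelled and 3.30, 6.07 and 6.26 in sham rats. Vehicle 5, model 1, model 3 and sham 3 were low in both tissues and the other 5 rats high, with no array between. The erythroid marker mean split the spleens of the same rats, at 9.15 to 10.08 in those 4 and 10.29 to 10.82 in the other 5. It was also lower in the brains of those 4 (6.32 to 6.47, against 6.48 to 6.79 in the other 5), and in white blood cells these ranges overlapped. The part of these cells in the split was not tested. In the brain the same 4 rats were the lowest (3.36 in vehicle 5, 3.44 in model 1, 2.81 in model 3 and 3.35 in sham 3), and the others ran from 3.66 in sham 4 to 5.03 in model 2. Deviations from the group mean correlated between white blood cells and spleen with r = 0.935, and between brain and spleen with r = 0.841. Ifit2 and Ifit3 showed no such split. Since low and high rats occurred in every group, the group differences of Ifit1 had wide errors, such as 2.46 ± 1.54 for vehicle minus sham in white blood cells (adjusted p = 0.518). Without vehicle 5 its vehicle minus model difference in white blood cells passed (5.22, adjusted p = 0.0307).

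**Figure D5:**
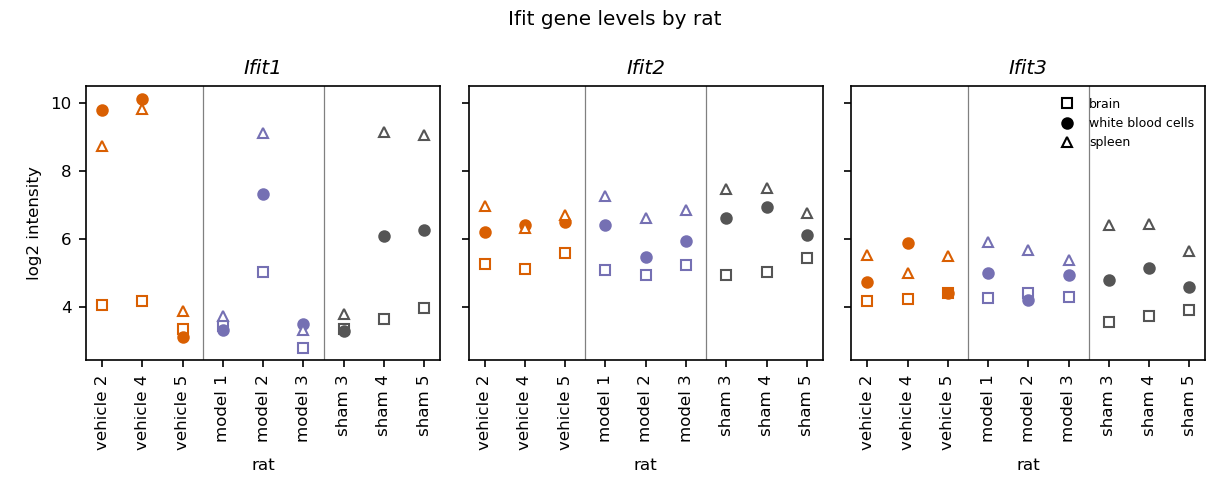
Log2 intensity of Ifit1, Ifit2 and Ifit3 (vertical axis) in each rat (horizontal axis) for brain (squares), white blood cells (filled circles) and spleen (triangles), coloured by group. Ifit1 is below 4 in all tissues of vehicle 5, model 1, model 3 and sham 3, and Ifit2 and Ifit3 show no such split.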

How the data were processed

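RNA of the brain, white blood cells and spleen of rats was measured on 27 arrays. The deposited table held 27596 probes per array. The authors processed intensities with RMA, per the submitters' processing notes, in a version not given in the sources used here. The deposited values carry no stated scale and were read as log2 intensities from their range, 1.53 to 13.49, and from array medians between 4.96 and 5.31. Replicate arrays correlated with r of 0.968 to 0.995, and the number of arrays limits the precision. No further normalization was applied.

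Groups and rat numbers came from the titles, and only the titles link the tissues of a rat. Rats of different groups can carry the same number. The labels name no batch, and a batch effect that follows the groups cannot be told apart from them. Of 15633 probes with a listed gene, 15310 had 1 symbol, and the probe with the highest mean was kept per gene. A RefSeq table (GRCr8) matched 15279 probes and supplied gene order only. Sequences are not shown because no sequence table was used here.

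Limma 3.58.1 in R 4.3.3 (lmFit, eBayes, 2-sided, 6 residual degrees of freedom per tissue) was fitted to all genes, checked on simulated data, with Benjamini-Hochberg adjustment within each comparison. Tissue differences and sham comparisons of tissues came from a fit of all 27 arrays. That the 3 arrays of a rat share an animal was left out of that fit (consensus correlation 0.0957) and tried as a block. Confidence intervals are those of limma. Named genes are the called members of a comparison, the 2 with the smallest p where none was called, 9 role examples, and up to 4 called genes per pathway list. Members and lists were chosen with earlier results of these data known. Alternatives changed normalization, filter, probe choice, prior, arrays in the fit, threshold and replicate block, or left out each rat in turn.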

Additional observations from a re-analysis of the deposited data

Results flagged for a closer look

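The vehicle minus sham difference was not the same in all tissues for 3 genes, by limma's F test over all 27 arrays. Rsad2 gave adjusted p = 0.00372, Isg20 adjusted p = 0.0117 and Cmpk2 adjusted p = 0.035. In each, the vehicle-labelled rats were higher than sham in white blood cells (2.70, 1.44 and 1.91) in 3 of 3 arrays, and the spleen differences lay below 0 (-0.85, -0.34 and -0.05). Erythroid markers ran the same way, with a median vehicle minus sham difference of 2.62 in white blood cells and -0.42 in spleen. Neutrophil markers did too (0.86 and -0.60), and the part of either list in the result was not tested. Over all alternatives the adjusted p reached 0.0674 for Rsad2, 0.0716 for Isg20 and 0.189 for Cmpk2.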

How the results depend on the processing

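Of 217 recounts of genes called, over 13 comparisons, 196 stayed within 1.5 times the reported count. In most of these comparisons the reported count was 0, so an unchanged recount there was again 0. The limit also ignores which genes were called. A recount of 2 against 3 between vehicle and model white blood cells stayed within it, with other genes called, as given below. Of the genes named by p in a comparison, none changed sign in the alternatives, and the signs of the other differences were not compared. The median brain vehicle minus sham difference of the 35 genes, 0.04, was -0.02 with the replicate block and -0.05 without sham 4. Rsad2, Cmpk2 and Isg20 passed between vehicle-labelled and sham white blood cells under all 18 alternatives, with differences of 2.49 to 3.00, 1.71 to 2.27 and 1.25 to 1.73. Leaving out each rat in turn, with all its arrays, gave 3 to 5 genes there (5 without sham 5) and 3 to 5 against model (5 without vehicle 5). It gave 0 to 1 gene between model and sham in brain, 0 to 1 in each spleen comparison, 0 to 1 for the tissue difference of model minus sham, 0 to 3 for that of vehicle minus sham, and 8 to 13 between sham white blood cells and sham spleen, against 16 reported.

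Between model and sham brains 1 gene passed with a variance trend and robust prior, 1 at an adjusted p under 0.10, 1 in the fit of all 27 arrays (Tap1) and 1 without the brain arrays of vehicle 2 and sham 5, which also gave 1 between vehicle and sham. In spleen 1 gene, Isg20, passed in the fit of model and sham alone. Quantile normalization left 1 gene, Rsad2, in the tissue difference of vehicle minus sham. The cause was not tested.

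The replicate block gave 5 genes between vehicle and sham white blood cells, adding Irf7 and Oas1a, and 2 between vehicle and model (Irf7 and Oas1a), where Rsad2 (adjusted p = 0.141), Isg20 (0.0932) and Cmpk2 (0.0762) no longer passed. Deviations from the group means correlated over 12 pairs of same-numbered arrays with r from -0.474 to 0.377, 2 of them above 0.1. With 3 arrays per group these values cannot settle whether shared numbers mark a common block, which was not tested. With the block the median spleen difference of vehicle minus model was 0.08, against -0.20 without it. A filter at the 40th percentile kept 14 of 35 genes in brain, 34 in white blood cells and 35 in spleen, so most brain values were dim.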
